A study of Rattus norvegicus with 16 samples.

Results

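The comparison described here set 1 array of renal outer medulla from rats given 2-amino-4-nitrophenol (ANP) for 7 days against 1 array from vehicle rats of the same day. These are 2 of the 16 one-colour Agilent arrays of the study, which also profiled days 1, 14 and 28, and they were taken by their labels. The ANP group at day 7 was made up of male Crl:CD Sprague-Dawley rats, 5 weeks old when dosing began, that received 750 mg/kg/day of ANP in corn oil once a day by mouth. The vehicle (VC) group at day 7 was made up of rats of the same strain, sex and age that received corn oil alone. Each of these arrays carried RNA mixed from 3 animals, as did the day 1 arrays, so that each side of the comparison is a single measurement and the ratios below carry no error and no test. Days 14 and 28 had 3 ANP arrays and 3 vehicle arrays each, with 1 animal per array.

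ANP is an aromatic amine that also carries a nitro group and a phenol group, and it has been used in hair dyes. Compounds of this kind can be reduced and oxidised in cells to reactive species, and they are cleared after conjugation to glucuronic acid, sulphate or glutathione and export by membrane pumps. The transcription factor NRF2, held in check by KEAP1, drives many of the genes for these steps through the antioxidant response element, a short promoter sequence. The outer medulla holds the straight (S3) part of the proximal tubule, which takes up organic ions and is a common site of toxic injury, beside the thick ascending limb and the collecting duct.

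Levels are given as the log2 processed signal minus the array's 75th percentile of signal, so that 0 is the 75th percentile. The percentile was 1063 in the ANP pool, against 1169 in the vehicle pool (810 to 1324 over the series), and 66.6% of probes of the ANP pool were well above background, against 67.5% of those of the vehicle pool. Both pools were hybridised on the same slide, together with the day 1 arrays. Markers of the labelled tissue were well above background in both pools: Slc7a13, a cystine transporter of the S3 segment, stood at 8.09 in the ANP pool, against 8.28 in the vehicle pool, and Umod, the uromodulin of the thick ascending limb, at 9.04 in the ANP pool, against 8.94 in the vehicle pool. Markers of the cortex were present too. The podocyte gene Nphs1 stood at -0.35 in the ANP pool, against -1.18 in the vehicle pool, and the cortical proximal transporter Slc34a1 at 7.51 in the ANP pool, against 7.28 in the vehicle pool.

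Many genes of redox defence and conjugation were higher in the ANP pool of day 7, and most genes differed little between the pools. Among 11633 named genes whose probe was well above background on both arrays, 147 (1.26%) stood 2-fold or more above the vehicle pool and 176 (1.51%) stood 2-fold or more below it. The median log2 ratio of all these genes was 0.04, 90.5% of genes lay within 1.5-fold, and the central range from the 1st to the 99th percentile ran from -1.18 to 1.08. With normexp background correction in place of the deposited processed signal the counts were 73 higher and 94 lower. Of the genes named below, that setting moved some by over 1.5-fold: the log2 ratio became 2.96 for Havcr1, 0.98 for Lyzl1, 1.44 for Lpal2, -4.08 for Cyp2c11, -2.24 for Shisa3, -1.22 for Neurl1b, -0.78 for Cxcl9, 1.16 for Tesmin, 0.97 for Samd13 1.08 for Hspb8 and -1.23 for Crygd, with no change of sign.

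**Figure D1:**
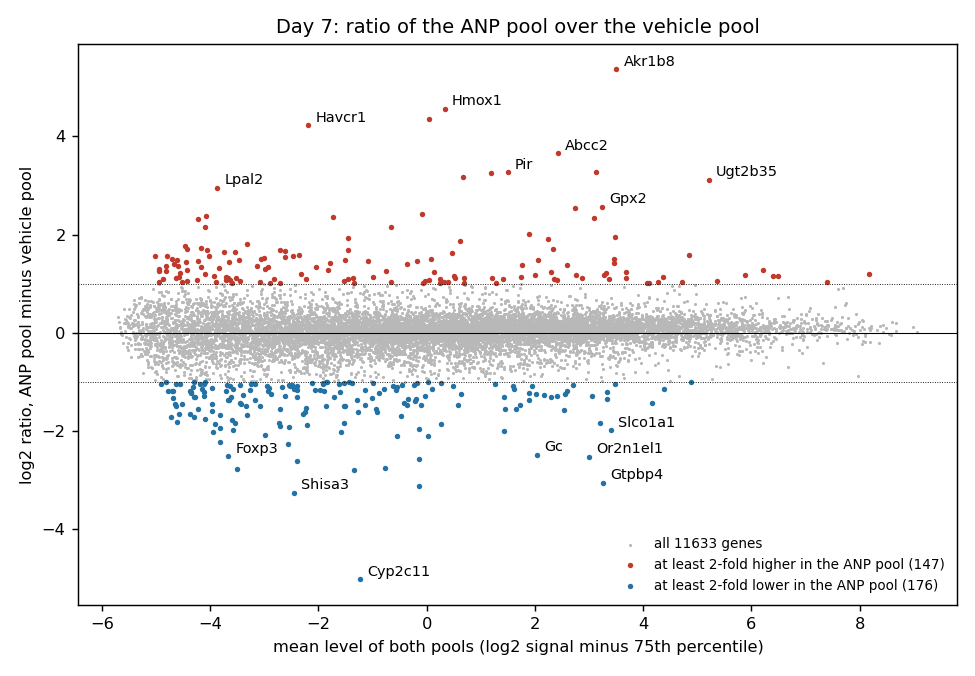
Each point is 1 of 11633 genes: the horizontal axis gives the mean level of the ANP and vehicle pools of day 7 (log2 signal minus the 75th percentile), the vertical axis the log2 ratio of the ANP pool over the vehicle pool, with dotted lines at 2-fold. The 147 genes above the upper line (red) are led by Akr1b8 at 5.36, and the 176 below the lower line (blue) by Cyp2c11 at -5.03.

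The largest increase was that of Akr1b8, an aldo-keto reductase that reduces reactive aldehydes. It stood at 6.19 in the ANP pool, against 0.82 in the vehicle pool, a 41.2-fold difference. Hmox1, which encodes haem oxygenase 1, stood at 2.62 in the ANP pool, against -1.95 in the vehicle pool, 23.7-fold higher. The other 7 vehicle arrays of the series ranged from -2.01 to 1.47 for Akr1b8 and from -2.09 to 1.19 for Hmox1, so the ANP pool lay above all of them for both genes. Abcc2, the apical pump that exports glutathione and glucuronide conjugates, stood at 4.24 in the ANP pool, against 0.59 in the vehicle pool, 12.6-fold higher. Pir, an iron-binding nuclear protein, stood at 3.13 in the ANP pool, against -0.14 in the vehicle pool, 9.64-fold higher, and its 2 probes gave log2 ratios of 3.27 and 3.60. Nqo1, the quinone reductase often used to read NRF2 activity, stood at 2.26 in the ANP pool, against -0.90 in the vehicle pool, with 2.83 and 3.17 at its 2 probes. Gpx2, a glutathione peroxidase, had 3 probes between 2.43 and 2.605, but its vehicle level was less steady: 4.52 in the ANP pool against 1.95 in the vehicle pool of day 7 and 1.29 to 4.07 on the other vehicle arrays.

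Of the 30 measured NRF2 target genes, 27 lay above 0 and 14 were at least 2-fold higher, with none at least 2-fold lower, and their median log2 ratio was 0.87 (all genes: 0.04, with 6606 of 11633 above 0). The ANP pool lay above all 8 vehicle arrays of the series for 21 of the 30. Over all genes the ANP pool lay above all 8 vehicle arrays for 16.8% and below all 8 for 8.48%, and most of those vehicle arrays came from other days and slides, so age, slide and treatment cannot be told apart in that count. Members of the thioredoxin and glutathione cycles were among the higher ones: Srxn1 (sulfiredoxin, 1.91 at the probe used but 1.01 at its other probe), Gsr (glutathione reductase, 1.02) and Txnrd1 (thioredoxin reductase, 0.78, between 0.61 and 0.90 at 4 probes). Ephx1, the microsomal epoxide hydrolase, had a ratio of 1.94, Ptgr1, an alkenal reductase, 2.33, and Akr7a3, an aflatoxin aldehyde reductase, 1.20. Among the enzymes that supply NADPH, Tkt of the pentose phosphate pathway had a ratio of 1.03, whereas Idh1 (-0.11) and Nnt (-0.29) were not higher. The genes that start glutathione synthesis stood near 0: Gclc had a ratio of 0.12 and Gclm of -0.09. Nfe2l2 (0.12) and Keap1 (0.11), the genes of NRF2 and of its inhibitor, also stood near 0. Osgin1, an oxidative stress growth inhibitor, had the lowest ratio of the list at -0.46, with 3.87 in the ANP pool, against 4.33 in the vehicle pool.

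The proximal promoters of the higher genes were searched for the core of the antioxidant response element, because these genes stood high together. The motif was TGACNNNGC on either strand (GCNNNGTCA when read on the gene's strand), in RefSeq windows of 300 bases on GRCr8 that run from 250 bases before to 50 after the start of each gene. A match was present in 12.1% of all 33469 windows, in 14.4% of the 9502 windows of genes measured on both arrays, in 16.8% of those of the genes at least 2-fold higher (20 of 119 with a window), in 11.9% of those of the genes at least 2-fold lower (15 of 126) and in 7 of 23 windows of the NRF2 target genes. The motif also fits some sites of the AP-1 family, and a match of letters is no measure of binding. Pir and Gpx2 are shown because they were the genes among the 20 largest increases with a match before the start, and Gclm, Prdx1 and Me1 are the other listed NRF2 target genes with one. Capitals mark the match, bases run 5′ to 3′ on the gene's strand, and Pir (chrX:33851050-33851299, minus strand, GRCr8) and Gpx2 (chr6:101230034-101230283, minus strand) are given as the 250 bases before the start.
Pir: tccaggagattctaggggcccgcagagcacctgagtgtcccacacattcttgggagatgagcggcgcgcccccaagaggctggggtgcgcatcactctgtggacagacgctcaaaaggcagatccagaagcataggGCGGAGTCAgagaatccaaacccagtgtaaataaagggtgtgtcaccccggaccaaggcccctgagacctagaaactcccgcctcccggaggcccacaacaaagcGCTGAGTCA
Gpx2: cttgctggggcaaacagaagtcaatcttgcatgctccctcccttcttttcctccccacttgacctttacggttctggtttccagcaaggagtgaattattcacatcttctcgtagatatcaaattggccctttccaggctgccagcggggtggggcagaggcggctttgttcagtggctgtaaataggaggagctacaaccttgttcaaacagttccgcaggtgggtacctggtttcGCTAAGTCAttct
Gclm: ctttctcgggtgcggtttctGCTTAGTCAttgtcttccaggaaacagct
Prdx1: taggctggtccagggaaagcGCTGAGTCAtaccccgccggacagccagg
Me1: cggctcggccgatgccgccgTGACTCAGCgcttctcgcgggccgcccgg
The 3 shorter stretches, with 20 bases on each side of the match, lie at chr2:213031943-213031991 (plus strand) for Gclm, chr5:135383751-135383799 (plus strand) for Prdx1 and chr8:96540383-96540431 (minus strand) for Me1. Pir held matches that begin 114 and 9 bases before its start, Gpx2 one at 13, Gclm at 172, Prdx1 at 135 and Me1 at 167. Genes with a match had large and small day 7 ratios: 3.27 for Pir, 2.57 for Gpx2, 0.63 for Me1, 0.47 for Prdx1 and -0.09 for Gclm. The windows of Abcc2 (3.65), Areg (2.16) and Nfe2l2 (0.12) held a match that was not wholly before the start and is not shown, and those of Akr1b8 and Nqo1 held none. Windows were present for 17 of the 20 largest increases, so Hmox1, Atf3 and Ptgr1 were not searched. Sequence more than 250 bases before a start was not searched for any gene.

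Conjugating enzymes were the next group. Of 10 measured UDP-glucuronosyltransferase genes and their cofactor enzyme, 9 lay above 0 and 6 were at least 2-fold higher, with a median log2 ratio of 1.26. Of all genes, 1.26% were at least 2-fold higher. The Ugt2b members differed most. Ugt2b7 stood at 2.21 in the ANP pool, against -2.14 in the vehicle pool (20.4-fold higher), Ugt2b35 at 6.77 in the ANP pool, against 3.65 in the vehicle pool (8.69-fold), Ugt2b37 at 4.76 in the ANP pool, against 1.497 in the vehicle pool (9.62-fold) and Ugt2b15 at 2.81 in the ANP pool, against -0.45 in the vehicle pool (9.55-fold). For all 4 the ANP pool lay above every vehicle array. These genes are close copies of each other, and a probe may take up transcripts of its neighbours, so they are not 4 separate measurements. Ugdh, which makes the UDP-glucuronic acid they use, had a ratio of 1.18, Ugt1a6 0.73 at the probe used and up to 2.15 at another, and Ugt1a1 0.41. Ugt8, a galactosyltransferase of myelin lipids, was 2-fold lower (-1.07), with -4.23 in the ANP pool, -3.16 in the vehicle pool and -4.11 to -3.34 on the other vehicle arrays.

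Among 22 glutathione S-transferase genes, 19 lay above 0 and 4 were at least 2-fold higher (1.26% of all genes were), with a median of 0.40. Gstm1 stood at 4.02 in the ANP pool, against 1.47 in the vehicle pool, 5.86-fold higher, although the vehicle pool of day 7 was itself above the other vehicle arrays, which ranged from -0.12 to 1.36. Gsta3 (1.16 at the probe used, up to 2.37 at another of 3), Mgst1 (1.03) and Gstm7 (1.01) were the others past 2-fold, and Gstp1 stood at 0.91. Export pumps differed by member. Abcc4 (1.49, between 1.28 and 1.49 at 4 probes) and Abcb1b, a P-glycoprotein gene (1.87, up to 3.10 at another probe), were at least 2-fold higher like Abcc2, whereas Abcc5 (-0.64), Abcg2 (-0.19) and Abcc1 (-0.18) were not higher, and the median of the 10 pump genes was 0.48. The 37 measured cytochrome P450 genes, which carry out the oxidations before conjugation, had a median of -0.03 with 17 above 0. Uptake carriers of the SLC22 and SLCO families had a median of -0.02 over 21 genes.

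**Figure D2:**
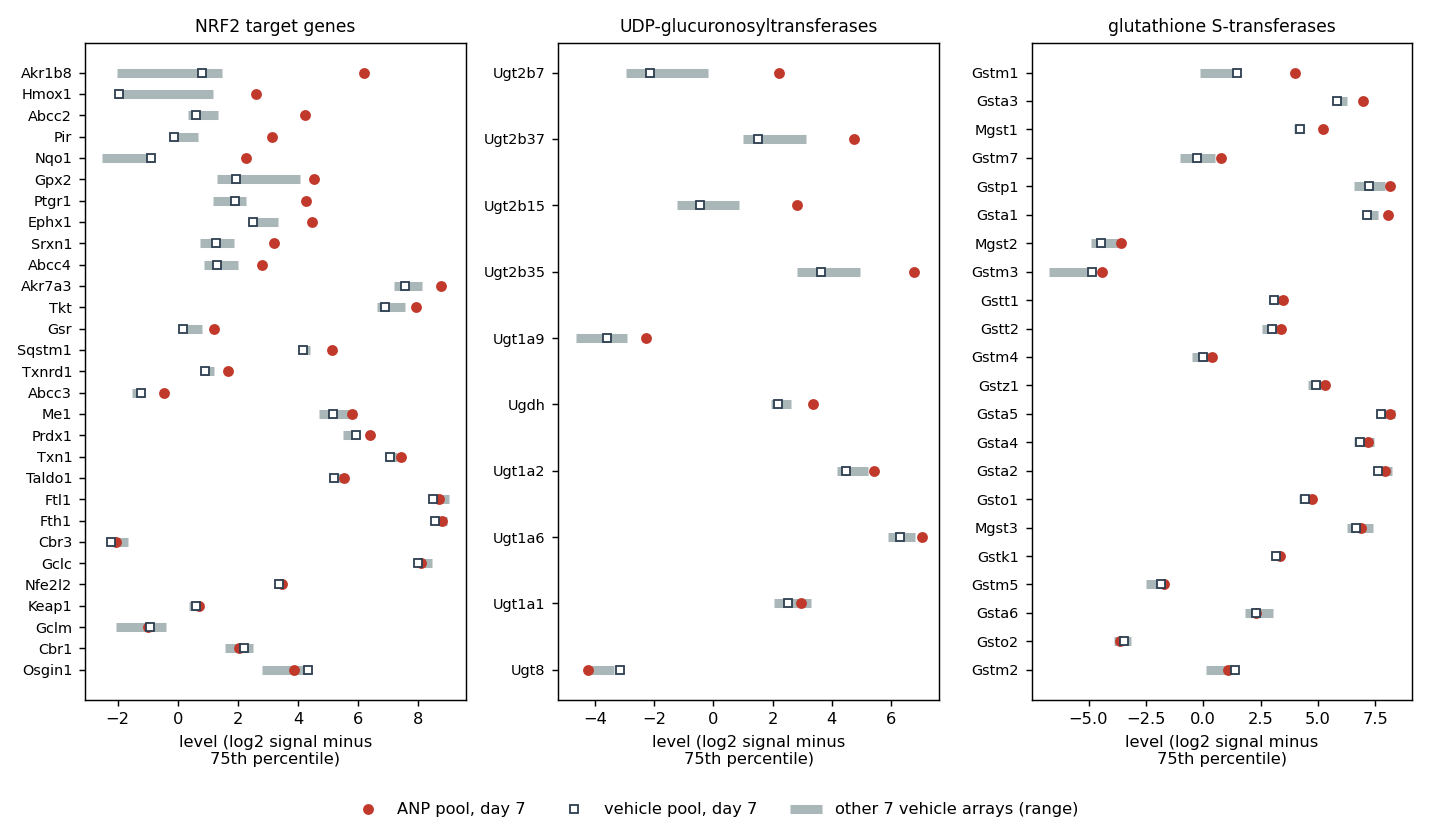
Levels (log2 signal minus the 75th percentile, horizontal axis) of measured NRF2 target genes, UDP-glucuronosyltransferase genes and glutathione S-transferase genes, 1 row per gene ordered by the day 7 ratio; red points are the ANP pool of day 7, open squares the vehicle pool of day 7 and grey bars the range of the other 7 vehicle arrays. The ANP pool lies to the right of the grey bar and of the square for the upper rows of each panel, such as Akr1b8, Ugt2b7 and Gstm1, and within the bar for lower rows such as Gclm and Gsta6.

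Injury markers were divided. Of 27 measured members, 14 lay above 0 and 3 were at least 2-fold higher (1.26% of all genes were), with a median of 0.07. Their mean level on a scale centred per gene was 0.30 in the ANP pool, against 0.11 in the vehicle pool and -0.29 to 0.20 on the other vehicle arrays. The ANP pool lay above all 8 vehicle arrays for 10 of the 27 and below all 8 for 2, beside 16.8% and 8.48% of all genes. Havcr1 (kidney injury molecule 1, a phagocytic receptor of damaged proximal tubule cells) stood at -0.07 in the ANP pool, against -4.30 in the vehicle pool, 18.7-fold higher, and the other vehicle arrays lay between -5.05 and -2.89. Clu (clusterin), with 3.92 in the ANP pool, against 2.71 in the vehicle pool, was higher by 1.21 and 1.25 at its 2 probes, and the fibrinogen chain gene Fgb had a ratio of 1.01. Lcn2 (lipocalin 2) at -0.12, Spp1 (osteopontin) at -0.34 and Vim (vimentin) at -0.27 were not higher. At day 1, in pools that share no sample with those of day 7, the log2 ratios were 9.63 for Havcr1, 2.77 for Lcn2 and 2.01 for Spp1. Other stress genes with large day 7 ratios were Atf3 (2.43; 1.13 in the ANP pool, against -1.30 in the vehicle pool), a transcription factor of cell stress, the growth factor genes Areg (2.16) and Gdf15 (1.63, and 1.69 at its other probe), and the small heat shock gene Hspb8 (1.68). Fosl1, an AP-1 subunit, was well above background in the ANP pool alone, and was at least 10.019-fold higher there. Cdkn1a, the p53 target that halts the cell cycle, stood at -0.05, while 18 of 22 p53 target genes lay above 0 with a median of 0.17. The ATF4 and amino acid stress genes had a median of 0.04 and the immediate early genes of -0.04.

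Genes of haem and iron handling were higher in part. Beside Hmox1, Alas1, which starts haem synthesis, stood at 6.46 in the ANP pool, against 5.30 in the vehicle pool (1.17), the haem transporter gene Slc48a1 had a ratio of 0.91, and the iron exporter Slc40a1 one of 1.12 (0.99 to 1.12 at 3 probes). The ferritin genes Ftl1 (0.21, but up to 0.94 at another of 5 probes) and Fth1 (0.20) stood near 0, and the list's median was 0.21 over 19 genes. Haemoglobin and red cell genes had a median of -0.19 over 10 genes.

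Some other genes far apart at day 7 have no listed part in conjugation or redox defence. Lyzl1, a lysozyme-like gene, stood at -2.89 in the ANP pool, against -5.27 in the vehicle pool, with 2.38 and 2.72 at its 2 probes, and the phosphatase gene Ppm1j at -0.54 in the ANP pool, against -2.91 in the vehicle pool. Lpal2 (2.96) stood at -2.39 in the ANP pool, against -5.35 in the vehicle pool and -5.25 to -2.37 on the other vehicle arrays, so that the ANP pool lay inside the vehicle range. Tesmin (2.31) and Samd13 (2.15) were dim in both pools. For 19 of the 20 largest increases the ANP pool lay above all 8 vehicle arrays, beside 16.8% of all genes, Lpal2 being the exception. These genes were chosen by their ratio over 1 of those arrays, which favours a high ANP value, so this count tests nothing.

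The decreases rested on the vehicle pool more often than the increases did. For 8 of the 20 largest decreases the ANP pool lay below all vehicle arrays, and for 10 the vehicle pool of day 7 lay above the other 7. Those 10 include the olfactory receptor genes Or6c3b, Or2n1e, Or2n1j and Or2n1el1. Over all genes the vehicle pool of day 7 lay above the other 7 vehicle arrays for 9.22% and below them for 10.5%. Among the 176 genes at least 2-fold lower, the ANP pool was below all vehicle arrays for 55 and the vehicle pool was above the others for 55, with 8 in both counts and 74 in neither. Among the 147 higher genes the ANP pool was above all vehicle arrays for 98 and the vehicle pool below the others for 20, with 14 in both counts and 43 in neither. A large ratio needs a high value on one side or a low one on the other, so these counts describe where the ratio came from and test nothing.

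Cyp2c11, a male-predominant steroid hydroxylase of rat liver, had the largest decrease: -3.74 in the ANP pool, against 1.29 in the vehicle pool, 32.6-fold lower. Its other vehicle arrays ranged from -2.13 to 3.99, with the ANP pool below all. Gc, the vitamin D binding protein, stood at 0.79 in the ANP pool, against 3.28 in the vehicle pool, 5.60-fold lower, and the other vehicle arrays lay between 2.14 and 3.90. Shisa3 (-3.27) and the annexin gene Anxa13 (-3.12) were also below all vehicle arrays in the ANP pool. Slco1a1, an organic anion carrier of the proximal tubule, stood at 2.41 in the ANP pool, against 4.40 in the vehicle pool (-1.99), again below every vehicle array. The major urinary protein genes Mup5 (-1.84 and -2.54 at its 2 probes), Mup4l1 (-1.68 and -2.32) and Mup4l4 (-1.66 and -1.99) were lower together, but they are close copies, and Mup5 ranged from -6.68 to 0.57 on the other vehicle arrays, with -3.65 in the ANP pool, against -1.80 in the vehicle pool. By contrast Neurl1b, a ubiquitin ligase gene of Notch signalling, stood at -4.94 in the ANP pool, against -2.70 in the vehicle pool, while the other vehicle arrays lay between -5.25 and -4.57, so that the vehicle pool alone stood apart. The olfactory receptor genes Or6c3b, Or2n1e, Or2n1j and Or2n1el1, named in earlier results of these data, had ratios from -2.80 to -2.53. The vehicle pool lay above the other vehicle arrays for each: Or2n1el1 stood at 1.73 in the ANP pool, 4.26 in the vehicle pool and 0.64 to 3.74 elsewhere. In the day 1 pools their ratios ran from -3.41 to -3.20. Probes of the Or2n1 genes may take up each other's transcripts, so they may not be separate measurements. Another olfactory receptor gene, Or5b95 (-2.77; -0.44 at day 1), had the vehicle pool at -2.12, inside the -5.29 to -0.44 of the other vehicle arrays. Genes well above background in the vehicle pool but not in the ANP pool included Nmur2 (at least 7.0277-fold lower) and the neuronal kinesin Kif5a (at least 6.58-fold lower), and both lay at -7.37 or below on the other vehicle arrays.

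Markers of cell types and segments gave a mixed picture, and in these bulk samples fewer cells of a type and less RNA per cell cannot be told apart. The S3 markers had a median ratio of -0.05 over 16 genes, none past 2-fold, and the fatty acid oxidation genes of 0.01 over 35 and the oxidative phosphorylation genes of -0.000846 over 28. At day 1 the medians of the same S3 and fatty acid oxidation genes were -0.82 and -0.79, again from 1 pool a side. Markers of the convoluted proximal tubule of the cortex lay above 0 for 16 of 17 genes with a median of 0.31. Their mean level was -0.11 in the ANP pool, against -0.50 in the vehicle pool on a scale centred per gene, and it ranged from -1.31 to 0.89 over the other 7 vehicle arrays, so that both pools lay inside the vehicle range. Thick ascending limb markers had a median of -0.28 with 3 of 15 above 0, principal cell markers one of -0.33 with 1 of 10 above 0, and intercalated cell markers one of -0.30. The principal cell mean was -0.39 in the ANP pool, against -0.06 in the vehicle pool and -0.31 to 0.20 on the other vehicle arrays. The ANP pool lay below all 8 vehicle arrays for 6 of those 10 genes, beside 8.48% of all genes. At day 28, 3 of the 10 fell by the test described below, beside 2.69% of all genes. On that day 5 of 13 podocyte, 2 of 11 intercalated and 1 of 15 thick ascending limb markers also fell. Of 17 convoluted proximal tubule markers 2 fell and 1 rose, and of 16 S3 markers 0 fell and 1 rose. The ANP arrays of day 28 filled a slide of their own, so slide and treatment cannot be told apart there. The thick ascending limb and intercalated means of the ANP pool (-0.15 and -0.35) lay inside the range of the other vehicle arrays. The part of the amount of cortex in each sample in these differences was not tested.

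Osmolyte and urea genes, which medullary cells raise under high salt, lay below 0 for 9 of 10 members with a median of -0.56. The betaine carrier Slc6a12 stood at -1.97 in the ANP pool, against -0.60 in the vehicle pool (-1.37, and -1.54 at its other probe), the inositol carrier Slc5a3 at 4.08 in the ANP pool, against 4.84 in the vehicle pool (-0.76), and their regulator Nfat5 had a ratio of -0.52. The mean of the list was -0.31 in the ANP pool, against 0.21 in the vehicle pool, with the other vehicle arrays between -0.27 and 0.36. The list mean of the ANP pool thus lay just below the vehicle range. Member by member, the ANP pool lay below all 8 vehicle arrays for 0 of the 10, beside 8.48% of all genes. At days 14 and 28 the medians of these genes were 0.10 and -0.003, and none passed the test described below.

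Interferon response genes were mostly lower too. Of 31 measured members, 28 lay below 0 and 4 were at least 2-fold lower, with a median of -0.48. Over all genes, 5027 of 11633 lay below 0 and 1.51% were at least 2-fold lower. The chemokine gene Cxcl9 stood at -4.97 in the ANP pool, against -3.21 in the vehicle pool (-1.76), the antiviral gene Oas1i had a ratio of -1.16, the transcription factor Irf7 of -1.05 and the ISG15 protease Usp18 of -1.03 and -1.08 at its 2 probes. The mean of the list was -0.46 in the ANP pool, against 0.06 in the vehicle pool, and from -0.30 to 0.32 on the other vehicle arrays. Macrophage markers (median -0.37, with 15 of 20 below 0), endothelial markers (-0.30, with 13 of 13 below 0) and extracellular matrix genes (-0.39, with 15 of 16 below 0) had negative medians as well, but the mean levels of these lists in the ANP pool lay inside the range of the other vehicle arrays. The macrophage mean was -0.14 in the ANP pool, against 0.20 in the vehicle pool and -0.18 to 0.20 on the other vehicle arrays. The endothelial mean was -0.18 in the ANP pool, against 0.16 in the vehicle pool and -0.22 to 0.27 on the others. The matrix mean was -0.08 in the ANP pool, against 0.32 in the vehicle pool and -0.56 to 0.38 on the others. C1qa, a complement gene of macrophages, stood at 1.39 in the ANP pool, against 2.22 in the vehicle pool, and the vehicle pool lay above the other vehicle arrays for 6 of the 20 macrophage markers. Cell cycle genes had a median of -0.14, and for 14 of 29 the vehicle pool of day 7 was above the other vehicle arrays, beside 9.22% of all genes. The interferon response genes had median ratios of -0.09 at day 14 and -0.08 at day 28. On each of those days 1 of the 31 fell by the test described below, beside 0.118% and 2.69% of all genes.

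**Figure D3:**
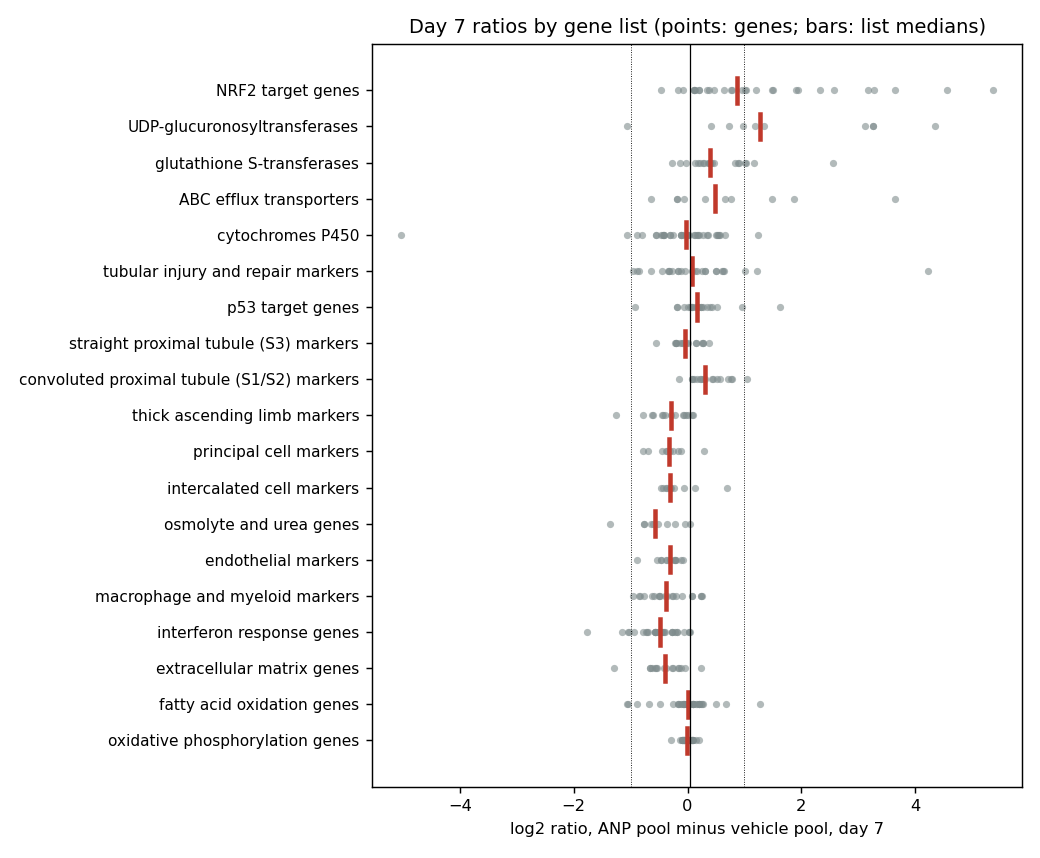
Log2 ratios of the ANP pool over the vehicle pool at day 7 (horizontal axis) for the measured members of 19 gene lists; points are genes, red bars list medians, the solid line the median of all genes and dotted lines mark 2-fold. NRF2 target genes and UDP-glucuronosyltransferases reach far to the right with medians of 0.87 and 1.26, while the interferon response genes and osmolyte genes lie mostly left of 0 with medians of -0.48 and -0.56.

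Different probes of the same gene were the only check on a ratio within the pools. Among 6023 genes with at least 2 probes well above background on both arrays, the SD of the log2 ratio among probes had a median of 0.09 and a 90th percentile of 0.28, which is error of the probes and the array and leaves out the spread between animals. Of the 147 higher genes, 58 had several such probes, all of them above 0 for 55 genes and all at least 2-fold for 36. Of the 176 lower genes, 74 had several, all below 0 for 70 genes and all at least 2-fold for 48. The 89 higher and 102 lower genes with 1 probe, among them Akr1b8, Hmox1, Havcr1 and Cyp2c11, have no such check. The genes whose probes differed most include Gtpbp4, a nucleolar GTPase gene among the 20 largest decreases: its 4 probes gave -3.07, -3.03, -0.24 and 0.21. The lens crystallin gene Crygd, with -2.09 and 0.08, and the apolipoprotein gene Apob, with -1.62 and -0.60 at 2 probes and a positive ratio at the third, were likewise divided, so that no direction can be given for these genes as a whole.

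**Figure D4:**
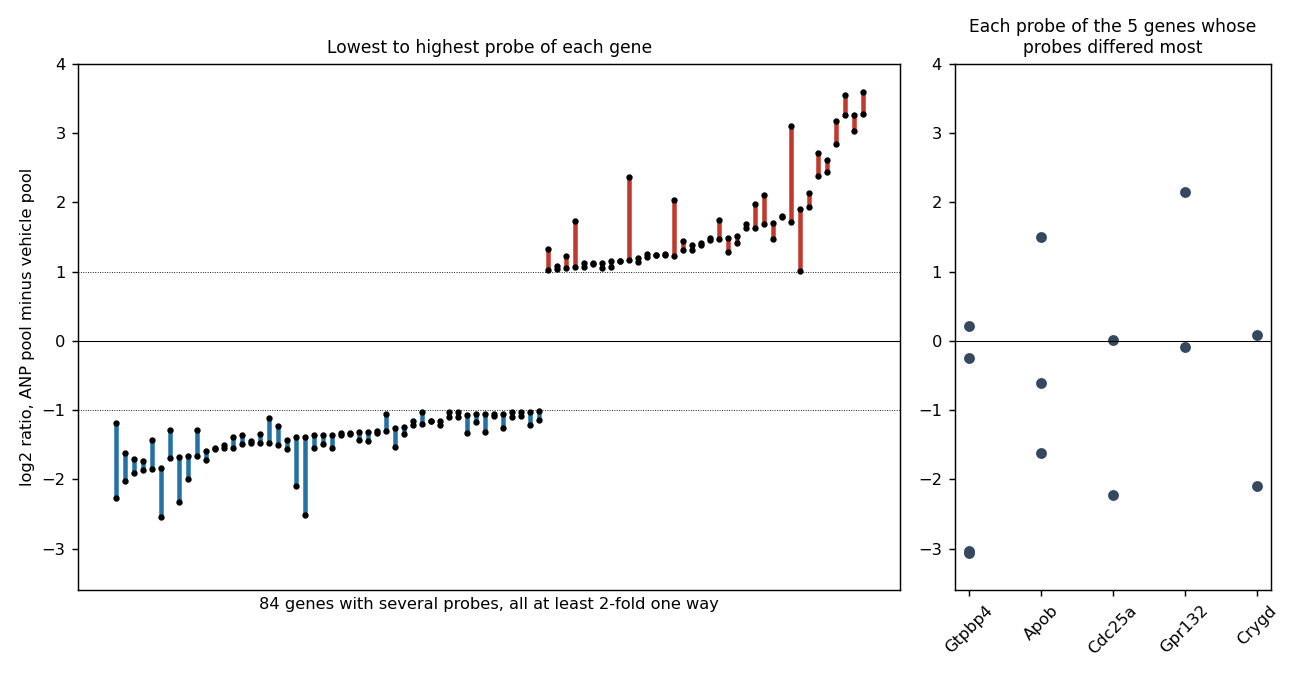
Left, the lowest to the highest log2 ratio (ANP pool minus vehicle pool) among the probes of each of 84 genes with several probes that were all at least 2-fold in the same direction, ordered by the ratio of the probe used; right, every probe of the 5 genes whose probes differed most. Probes of a gene on the left mostly lie close together, as for Pir at 3.27 and 3.60 at the right end, while those of Gtpbp4 fall into pairs near -3 and near 0.

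The genes far apart at day 7 were then followed in animals and controls they were not chosen on. At days 14 and 28, limma with Benjamini-Hochberg adjustment over 11849 genes called 43 genes as risen (0.363%) and 14 as fallen (0.118%) at day 14, and 532 as risen (4.49%) and 319 as fallen (2.69%) at day 28. Of the 147 genes higher at day 7, 14 rose at day 14 (9.52%) and 41 rose at day 28 (27.9%) while 3 fell there, and 10 rose on both days: Akr7a3, Dap, Gjb5, Hspb8, Lyzl1, Padi1, Pir, Ppm1j, Ptgr1 and Ripor2. The median log2 ratio of the 147 was 0.56 at day 14, with 105 above 0, and 0.47 at day 28, with 93 above 0 (all genes: 0.01 and 0.02). Of the 173 tested genes that were lower at day 7, 2 fell at day 14 (1.16%; Defb42 and Entrep3, named after their values were seen) and 16 fell at day 28 (9.25%) while 1 rose, with medians of -0.16 and 0.02. In the pools of day 1, where 3.77% of genes passed 2-fold upwards and 3.86% downwards, 54 of 144 of the higher genes passed it upwards and 6 downwards, and 50 of 167 of the lower genes passed it downwards and 6 upwards.

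These later calls depended on single arrays and on the slide. With slide as a block, day 14 comes down to 1 ANP array beside the 3 vehicle arrays of its slide, too few to call genes. The median of the 147 was 0.56 in that fit, as before (all genes: 0.01). At day 28 the ANP arrays filled a slide of their own, so slide and treatment cannot be told apart. Among the day 7 higher genes, the count that rose at day 14 was 4, 0 and 0 without ANP replicates 1, 2 and 3 of that day, 1 and 5 without vehicle replicates 2 and 3, 27 without ANP replicate 1 of day 28, and 9 without vehicle replicate 1 or 3 of day 28. The count that rose at day 28 was 23 without ANP replicate 2, and 17, 19 and 27 without vehicle replicates 1, 2 and 3 of that day. For the lower genes that fell at day 28 it was 8, 8 and 10 without ANP replicates 1, 2 and 3 and 5, 2 and 8 without vehicle replicates 1, 2 and 3. ANP replicate 1 of day 28 had the lowest of the 3 ANP values for 30 of the 41 genes that rose at that day, and for 181 of all 532.

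The single genes kept their distance to different degrees. Pir stood at 2.27, 2.67 and 2.56 in the ANP rats of day 14 and at 0.69, -0.02 and -0.02 in vehicle rats, and at 1.47, 3.19 and 3.21 in ANP rats of day 28 against -0.02, -0.16 and -0.04 in vehicle rats. The groups did not overlap on either day, and the log2 ratios were 2.29 ± 0.40 (SE; limma adjusted p = 0.0445) and 2.70 ± 0.40 (limma adjusted p = 0.0073). Nqo1 stood at 0.40, 2.12 and 2.61 in ANP rats of day 28 and -2.26, -2.51 and -1.18 in vehicle rats, a ratio of 3.70 ± 0.53 (SE; limma adjusted p = 0.0070). At day 14 its ratio was 2.62 ± 0.53 and missed the threshold (limma adjusted p = 0.0662). Akr1b8 stood at 5.26, 6.03 and 5.67 in ANP rats of day 14 and 1.29, 0.94 and -2.01 in vehicle rats, with 5.58 ± 1.12 (SE; limma adjusted p = 0.0662). At day 28 it rose by 5.14 ± 1.12 (limma adjusted p = 0.0265), with ANP values of 2.62, 6.50 and 6.12. Gstm1 had log2 ratios of 1.18 at day 1, 2.55 at day 7, 3.27 ± 0.73 at day 14 and 4.32 ± 0.73 at day 28 (SE; limma adjusted p = 0.0112 at day 28). It missed the threshold at day 14 (limma adjusted p = 0.0898), and its ANP rats of day 28 stood at 2.66, 6.10 and 5.39.

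Havcr1, Hmox1 and Atf3 followed another course. Havcr1 had log2 ratios of 9.63 at day 1, 4.23 at day 7, 2.10 ± 0.54 at day 14 and -0.03 ± 0.54 at day 28 (SE; limma adjusted p = 0.135 at day 14 and 0.98 at day 28), and its ANP rats of day 28 stood at -3.33, -3.64 and -3.84 against -2.89, -4.09 and -3.74 in vehicle rats. Hmox1 had 7.88, 4.57, 2.97 ± 0.90 and 1.71 ± 0.90 on the same days and passed the test on neither of the later days. The mean of its ANP rats was 1.04 at day 14 and 0.86 at day 28. Its vehicle rats of day 28 stood at -1.69, 1.19 and -2.03, so the smaller ratio of that day rested in part on the vehicle rat at 1.19. Atf3 had 5.67, 2.43, 1.52 ± 0.40 and 0.92 ± 0.40 and passed on neither. Gclm, near 0 at day 7, rose at day 28 by 1.72 ± 0.22 (SE; limma adjusted p = 0.0048). Cyp2c11 stood at -4.94, -3.72 and -5.52 in ANP rats of day 28 and at 2.45, 3.59 and -2.13 in vehicle rats, and fell by 6.03 ± 1.26 on the log2 scale (SE; limma adjusted p = 0.0231). Its vehicle rat at -2.13 lay far below the other two but above every ANP rat. Gc fell at day 28 by 2.66 ± 0.54 on the log2 scale (SE; limma adjusted p = 0.0219). Or2n1el1 stood at 4.04, -0.69 and 1.31 in ANP rats of day 14 against 3.07, 2.34 and 2.59 in vehicle rats, and its ratio of 1.81 ± 0.97 at day 28 had the opposite sign to the day 7 ratio of -2.53, with no call on either day. No gene of the 11849 differed between the day 28 and the day 14 ratio by limma's test of that difference, where 1098 had an unadjusted p under 0.05.

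**Figure D5:**
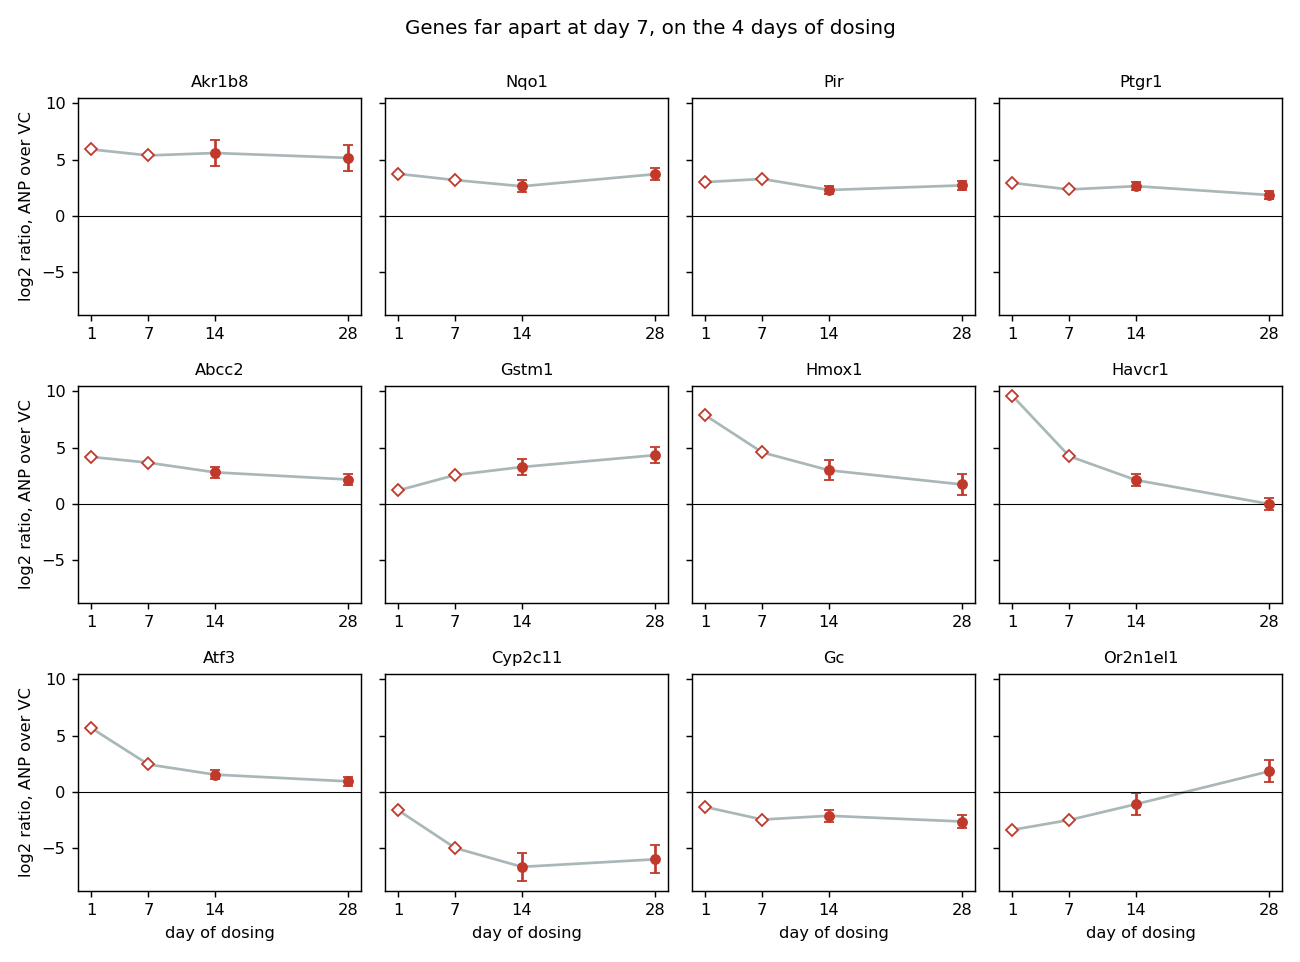
Log2 ratios of ANP over vehicle (vertical axis) on days 1, 7, 14 and 28 (horizontal axis) for 12 genes named in the text; open diamonds are single pairs of pools with no error, filled points are means of 3 ANP arrays minus means of 3 vehicle arrays with the SE of the limma fit. Akr1b8, Nqo1, Pir and Ptgr1 stay well above 0 on all 4 days, Havcr1 runs from 9.63 at day 1 down to -0.03 at day 28, and Or2n1el1 crosses 0.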

How the data were processed

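Cy3-labelled RNA was hybridised to 1-colour rat Agilent arrays and, as the submitters' processing notes have it, read with Agilent Feature Extraction 10.7. Per the file headers, the deposited scanner files give a processed, background-subtracted signal intensity and mark which spots exceed background. The authors' deposited value table holds a ratio that matched this signal divided by its 75th percentile (r on the log2 scale at least 0.9999). From the deposited intensity, log2 values minus each array's 75th percentile over 61657 non-control probes were taken, leaving out outlier spots (1 on each day 7 array; none was saturated). The depth is not a count here, and the number of arrays limits the precision.

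Probes were named through unversioned RefSeq accessions: this named 27460 probes (15284 genes) and left 34197 unnamed. Each gene is given by its brightest probe, averaged over the 16 arrays. At day 7 the ratio is ANP minus vehicle with no test. Unnamed probes (19789 well above background on both arrays) held 225 at least 2-fold higher and 260 lower. A gene well above background on 1 pool has a bound, its level against the higher of its own level and the lowest signal well above background on the other array.

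Days 14 and 28 were fitted with limma 3.58.1 in R 4.3.3 on their 12 arrays (lmFit, eBayes, adjusted p under 0.05). Genes were kept where every array of 1 group or more exceeded background. The labels say these arrays came from separate animals. The fit was also run on simulated data, with an outcome that is not given here. The text names the 20 largest ratios of each direction, up to 8 bounds a direction, members of 41 lists, the 5 genes whose probes differed most and genes whose probes all passed 2-fold. Members, lists and tests were chosen with earlier results of these data known. The alternatives were other scalings, background corrections, filters and probe rules, left-out replicates, and slide or replicate blocks. The planned normexp fit used the median signal, as no mean signal column was present, and no non-control probe had repeat spots, so no SD between spots is given. Some single genes counted in the lists are not reported here by name.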

Additional observations from a re-analysis of the deposited data

How the results depend on the processing

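The day 7 counts were 147 genes higher and 176 lower. They were 73 and 94 with normexp, 265 and 323 with genes well above background on at least 1 array, 466 and 490 with no filter on dim probes, 38 and 48 at 3-fold, and 479 and 558 over all probes; the other 4 settings gave 137 to 147 higher and 175 to 177 lower. Of 205 list medians under 5 alternatives, 202 moved by less than the spread between single animals. The others were the export pumps with normexp (0.22) and the oxidative phosphorylation genes with quantile normalization (-0.12) and normexp (-0.12). Of 3480 gene ratios under the same alternatives 3369 moved by less than that spread, and none of the genes past 2-fold turned its sign.

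At day 14, with 43 genes risen and 14 fallen, the counts were 69 risen with normexp, 21 without the filter, 14 with only the 6 arrays of the day and 0 with slide as a block, and 23 fallen with quantile normalization, 51 with normexp, 7 without the filter, 8 with only the 6 arrays and 0 with slide as a block. Of the day 7 higher genes, 14 rose there, against 6 without the filter, 9 with the 6 arrays and 0 with the slide block; of the lower genes 2 fell, against 9 with normexp, 5 with the 6 arrays and 0 with the slide block. At day 28, with 532 risen and 319 fallen, normexp gave 574 fallen, and the 6 arrays of that day 210 risen and 205 fallen, with 5 of the day 7 lower genes fallen against 16. Leaving out 1 array at a time gave 0 to 69 risen and 1 to 26 fallen at day 14 and 144 to 554 risen and 62 to 423 fallen at day 28. The day 7 higher genes among them ran from 0 to 27 and from 17 to 47, and the lower genes from 0 to 5 and from 2 to 15.

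Whether replicate numbers pair the samples was not settled. Same-numbered ANP and vehicle arrays had deviations correlated at 0.129, 0.069 and 0.144 at day 14, and unlike-numbered ones from -0.179 to 0.049. At day 28 the same-numbered arrays had -0.067, -0.045 and 0.113, and the unlike-numbered ones from -0.121 to 0.156. With the replicate block, 23 genes rose at day 14, 6 of them day 7 higher genes, and no other count moved by over 1.5 times. No paired fit exists for day 7, which has 1 array a side. A slide block at day 28 could not be fitted, since its ANP arrays filled 1 slide. Each day 7 ratio is 1 array over 1 array of pooled RNA, with no spread between animals.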
